A study of Homo sapiens with 27 samples.

Results

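The response to CPSF1 knockdown was compared between 2 human prostate cancer cell lines, LNCaP and 22Rv1, over 18 of the 27 Poly(A)-ClickSeq (PAC-seq) libraries of the study. In PAC-seq, reverse transcription is primed on the poly(A) tail, and the last base of a read before the tail marks the 3′ end of an RNA. LNCaP is an androgen-sensitive line, and 22Rv1 is a castration-resistant line. In each line, lentivirus delivered a non-targeting shRNA (CTRL sh, the control in both lines) or an shRNA against CPSF1, named CPSF1 sh1 or CPSF1 sh2, and each of these 6 groups had 3 libraries labelled as biological replicates. All groups were selected with puromycin at 2 µg/mL, expanded as infected cells and grown for 72 h in RPMI medium with serum. The infected cells were pools that still expressed CPSF1, and the shRNAs were the only means of lowering it. Members were chosen by column name alone. Every library of either line entered, and the libraries of the third line of the study, LNCaP95, were not used.

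CPSF1 is the largest subunit of CPSF, the cleavage and polyadenylation complex that recognises the AAUAAA hexamer upstream of a poly(A) site and directs cleavage of the nascent transcript. Where a site is not used, RNA polymerase can run on to a site further downstream, and sites inside introns can compete with those at the end of the gene. To determine where the lines responded differently, the quantity tested for each gene was the log2 fold change with knockdown (CPSF1 sh1 and sh2 together against CTRL sh) in 22Rv1 minus that in LNCaP. This line-by-knockdown difference is above 0 where a region gained more reads, or lost fewer, in 22Rv1. It was tested in 3′ UTRs, introns, coding sequences (CDS) and the region within 10 kb beyond the end of each gene. Values are CPM, read counts of a table scaled to a common library size with TMM factors. Fold changes within a line are given as values and carry no test here.

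LNCaP libraries held 3856706 to 11239076 counted reads and 22Rv1 libraries 3452413 to 12425417, of which 170330 to 728430 per library lay in 10 kb regions over both lines. No pair of libraries of a group agreed within sampling noise. CTRL sh 1 of 22Rv1 was the shallowest library. Libraries of both lines expressed the prostate luminal genes, and the defining basal genes KRT5 and TP63 and the immune gene PTPRC were at 0 in LNCaP and under 1 CPM in 22Rv1. The summed level of 4 basal genes, led by KRT14 (up to 6.38 CPM in LNCaP) and KRT15 (up to 3.17 CPM in 22Rv1), was 1.22 to 2.09 CPM in LNCaP controls, 1.94 to 6.91 with knockdown, 0.609 to 1.26 in 22Rv1 controls and 1.26 to 3.62 with knockdown. That of 4 immune genes, nearly all CD68, was 2.26 to 5.35 and 4.78 to 10.5 CPM in LNCaP and 2.61 to 7.54 and 1.58 to 8.89 CPM in 22Rv1, and the part of these levels in the differences was not tested. The neuroendocrine gene SYP ranged from 40.8 to 62.8 CPM in 22Rv1 and from 3.76 to 7.63 CPM in LNCaP. The replicates were cultures of established lines, and in these bulk RNA samples fewer cells of a type and less RNA per cell cannot be told apart.

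The targeted gene was lower with knockdown in both lines. In its 3′ UTR region, CPSF1 had 174, 136 and 130.5 CPM in the LNCaP controls and 50.2, 62.0 and 94.6 CPM (lowest, median and highest of the 6 knockdown libraries, as in the values that follow). In 22Rv1, the controls had 196, 128 and 139.8 CPM and the knockdown libraries 81.6, 88.9 and 110.3 CPM. Controls and knockdown libraries did not overlap in either line. The log2 fold change was -1.20 in LNCaP and -0.73 in 22Rv1, and the difference between the lines of 0.47 (SE 0.239, edgeR adjusted p = 0.287) did not pass the threshold of 0.05. The difference ranged from 0.31 to 0.67 over the alternatives tried, so an equal reduction of CPSF1 in the lines was not shown.

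Response differences were found in every kind of region. In 3′ UTRs, 505 of 10385 genes tested (4.86%) differed between the lines, 304 of them higher (2.93%) and 201 lower (1.94%) in 22Rv1. In introns, 652 of 11487 genes (5.68%) differed, 242 higher (2.11%) and 410 lower (3.57%). In the 10 kb regions, 204 of 12614 genes (1.62%) differed, 105 higher (0.832%) and 99 lower (0.785%), and in CDS 63 of 4415 genes (1.43%) differed, 34 higher (0.77%) and 29 lower (0.657%). In all, 1234 of the 15969 genes tested in a 3′ UTR, intron or 10 kb region differed in at least 1 of them. The split between directions depended on the scaling. With each library scaled to its reads over all 4 tables and TMM factors taken from 3′ UTRs, 203 3′ UTRs were higher and 287 lower, 1005 introns higher and 57 lower, and 18 CDS regions higher and 7 lower. With such library sizes and no TMM factors, the splits were 135 and 218, 1397 and 88, and 19 and 9. For the 10 kb regions, the split moved to 74 higher and 149 lower with the RLE factors of edgeR, 97 and 196 with DESeq2, and 66 and 100 with summed library sizes and no TMM factors. The median difference over all genes was 0.16 in the 10 kb table, so that values there stand against this shift, and 0.46 in introns under the summed sizes with 3′ UTR factors.

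Most of the genes that differed had the larger response in LNCaP. Among the 505 3′ UTRs, the size of the log2 fold change was larger in LNCaP for 432 and larger in 22Rv1 for 73. The signs of the 2 responses were opposite for 392 of them. Controls and knockdown libraries were fully separated only in LNCaP for 356, only in 22Rv1 for 55 and in opposite directions in both lines for 46. Introns and 10 kb regions showed the same order, with 518 of 652 and 151 of 204 larger in LNCaP. These counts describe genes picked by the difference, a choice that favours opposite signs and separation in 1 line. They were not set beside shares over all genes tested, and they were not tested. Over all genes tested, the SD of the 3′ UTR log2 fold changes was 0.55 in LNCaP and 0.36 in 22Rv1. Set alone against the controls, CPSF1 sh1 gave 561 3′ UTRs, 633 introns and 184 10 kb regions past the threshold, and CPSF1 sh2 gave 200, 262 and 126. The shRNAs share the control libraries of their line.

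**Figure D1:**
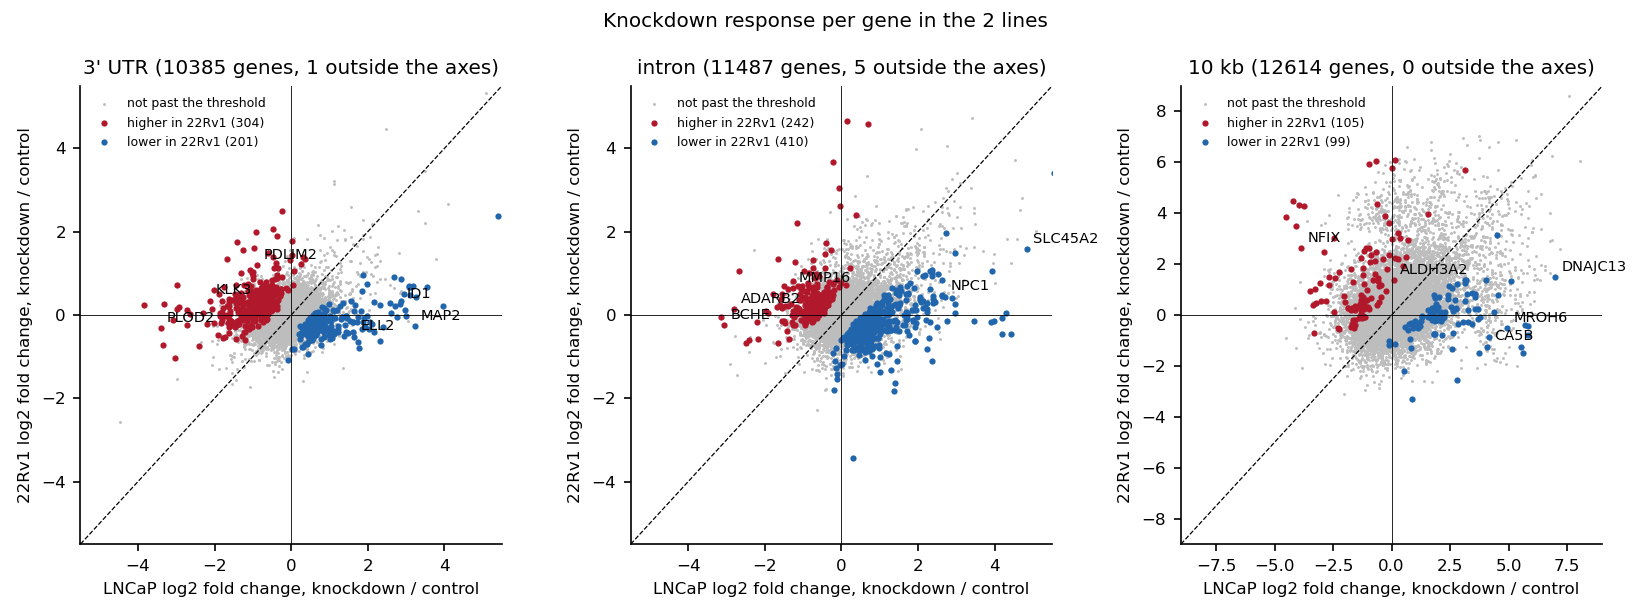
Log2 fold change with CPSF1 knockdown in LNCaP (x axis) against that in 22Rv1 (y axis) for every gene tested in 3′ UTRs, introns and 10 kb regions, with genes past an adjusted p of 0.05 for the difference coloured by direction and the dashed line marking equal responses. Of the 505 coloured 3′ UTR points, 432 have the larger response in LNCaP and 392 have responses of opposite sign. A log2 fold change of at least 1 in size in LNCaP and under 0.5 in 22Rv1 is found for 164.

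Summed over genes, the shares of the regions gave no difference between the lines past the threshold. The share of counted reads that ended in 10 kb regions was 4.88% ± 0.093 (SD, n = 3) in LNCaP controls and 6.28% ± 0.666 (n = 6) with knockdown, and 4.66% ± 0.246 and 5.87% ± 0.344 in 22Rv1. Every knockdown library lay above every control of its line. The increase in 22Rv1 minus that in LNCaP was -0.19 percentage points (two-sided exact permutation test, p = 0.593, adjusted p = 0.791 over 4 regions). Mean intron shares changed by -2.45 points in LNCaP and 2.50 points in 22Rv1. This difference of 4.94 points had an exact permutation p of 0.0453 and an adjusted p of 0.181. The 3′ UTR share differed by -4.54 points (exact permutation p = 0.186, adjusted p = 0.372) and the CDS share by -0.22 points (exact permutation p = 0.882, adjusted p = 0.882). The tests exchanged line labels over 18480 arrangements, within controls and within knockdown libraries, and the smallest p they allow is 0.000108. Without CTRL sh 1 of 22Rv1, the intron share passed the threshold (adjusted p = 0.0459). Between 16% and 38.8% of intron reads in a library lay in MTRNR2L genes, which carry copies of mitochondrial ribosomal RNA, and the difference without them was 4.03 points (adjusted p = 0.0766).

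**Figure D2:**
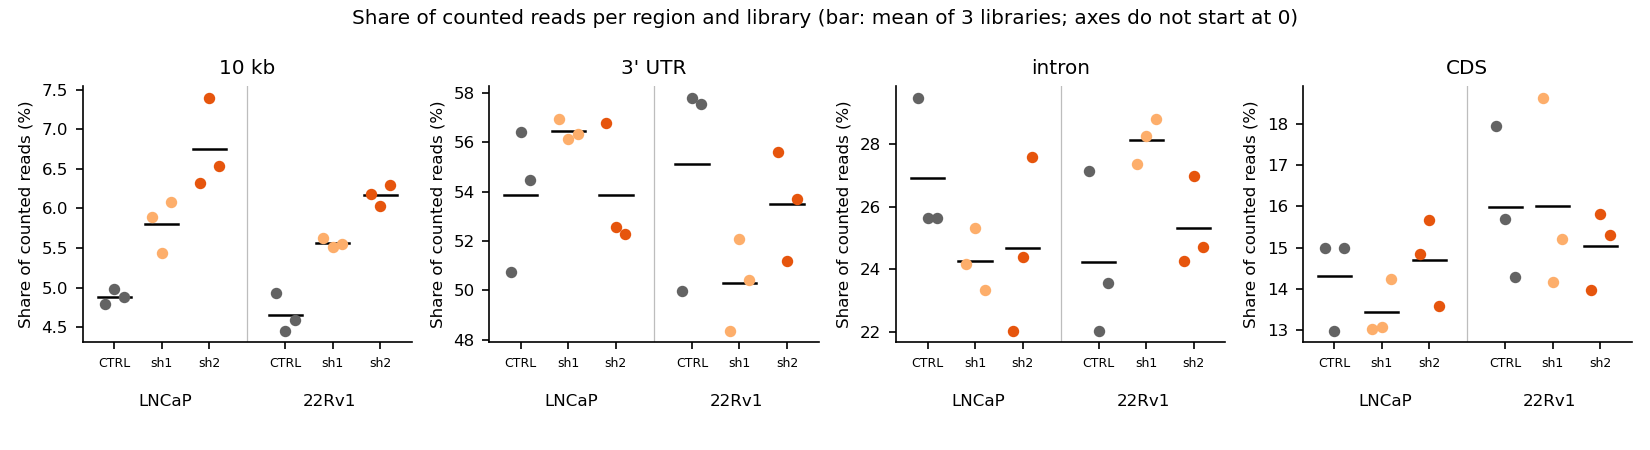
Percentage of each library's counted reads in 10 kb regions, 3′ UTRs, introns and CDS, with points for libraries and bars for the mean of 3. Shares in 10 kb regions are higher with both shRNAs in both lines, while the mean intron share with knockdown is lower than that of the controls in LNCaP and higher in 22Rv1.

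Among 3′ UTRs, the highest differences were at genes with fewer reads after knockdown in LNCaP and an overlap or a gain in 22Rv1. PLOD2, the procollagen lysyl hydroxylase that prepares collagen for cross-linking, had 29.1, 34.6 and 30.9 CPM in LNCaP controls and 1.29, 3.01 and 6.38 CPM with knockdown. In 22Rv1, the values were 40.2, 54.4 and 49.5 CPM and 33.5, 39.8 and 41.8 CPM. All LNCaP knockdown libraries lay below the controls, and the groups overlapped in 22Rv1. The difference was 3.09 (SE 0.3, edgeR adjusted p = 6.11e-07), from log2 fold changes of -3.40 and -0.32. KLK3, which encodes prostate-specific antigen, was abundant in LNCaP controls at 1609, 1561 and 1716 CPM and had 296, 386 and 419 CPM with knockdown. In 22Rv1 it was far lower in controls, at 33.9, 30.7 and 45.5 CPM, and had 39.4, 46.9 and 54.9 CPM with knockdown. The groups were separated in LNCaP and overlapped in 22Rv1, with a difference of 2.48 (SE 0.193, edgeR adjusted p = 1.24e-08). UGT2B15, an enzyme that glucuronidates androgens, had 486, 501 and 475 CPM in LNCaP controls and 88.7, 117 and 141 CPM with knockdown, against 89.8, 116.1 and 128 and 97.3, 129 and 148 CPM in 22Rv1. Its difference was 2.23 (edgeR adjusted p = 8.74e-07), with overlap in 22Rv1 alone. There, CPSF1 sh2 libraries had 134 to 148 CPM, above all controls, and CPSF1 sh1 libraries 97.3 to 123.5 CPM. UGT2B15 has close paralogs, and its reads could be split among them. PDLIM2, a PDZ and LIM domain adaptor, was separated in opposite directions. It had 144, 141 and 144 CPM in LNCaP controls and 58.6, 77.9 and 97.8 CPM with knockdown, but 23.2, 15.6 and 14.6 and 34.0, 39.0 and 45.6 CPM in 22Rv1 (difference 2.09, edgeR adjusted p = 8.70e-06).

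The lowest differences were at genes with few reads in LNCaP controls and more after knockdown. The 10 CPM required of these genes was a mean over the 9 libraries of a line. In LNCaP they reached it through their knockdown libraries. MAP2, a microtubule-associated protein best known from neurons, had 1.70, 1.68 and 2.19 CPM in LNCaP controls and 15.3, 16.7 and 22.1 CPM with knockdown. In 22Rv1, where it was abundant, it had 93.6, 96.1 and 89.9 CPM and 72.7, 74.0 and 85.8 CPM. The groups were separated upward in LNCaP and downward in 22Rv1, and the difference was -3.50 (SE 0.249, edgeR adjusted p = 3.42e-09). ID1, an inhibitor of basic helix-loop-helix transcription factors, had 4.80, 2.30 and 4.38 CPM in LNCaP controls and 19.8, 27.6 and 34.6 CPM with knockdown, against 151, 214 and 218 and 156, 242 and 272 CPM in 22Rv1. IGFBP3, which binds insulin-like growth factors, had 3.96, 2.1 and 4.62 and 18.1, 23.8 and 32.9 CPM in LNCaP, against 86.1, 114 and 118 and 81.0, 136 and 196 CPM in 22Rv1. Both were separated in LNCaP and overlapped in 22Rv1, with differences of -2.59 (edgeR adjusted p = 1.66e-05) and -2.51 (edgeR adjusted p = 0.00237). In 22Rv1, CPSF1 sh2 libraries lay above all controls, at 258 to 272 CPM (ID1) and 181 to 196 CPM (IGFBP3). CPSF1 sh1 libraries overlapped the controls, at 156 to 226 and 81.0 to 91.1 CPM. The IGFBP3 difference was -3.44 with CPSF1 sh1 alone and -1.74 with CPSF1 sh2 alone. GRIN3A, an NMDA receptor subunit, had 3.67, 2.93 and 0.972 CPM in LNCaP controls and 18.3, 19.2 and 25.4 CPM with knockdown, with a difference of -3.02 (edgeR adjusted p = 8.46e-06). C6orf52 was separated upward in both lines, with log2 fold changes of 3.54 in LNCaP and 0.68 in 22Rv1 and a difference of -2.85 (edgeR adjusted p = 4.84e-05). All 10 leading genes, ENO2 among them, stayed past the threshold in every alternative that gave them a value, and without any single library.

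**Figure D3:**
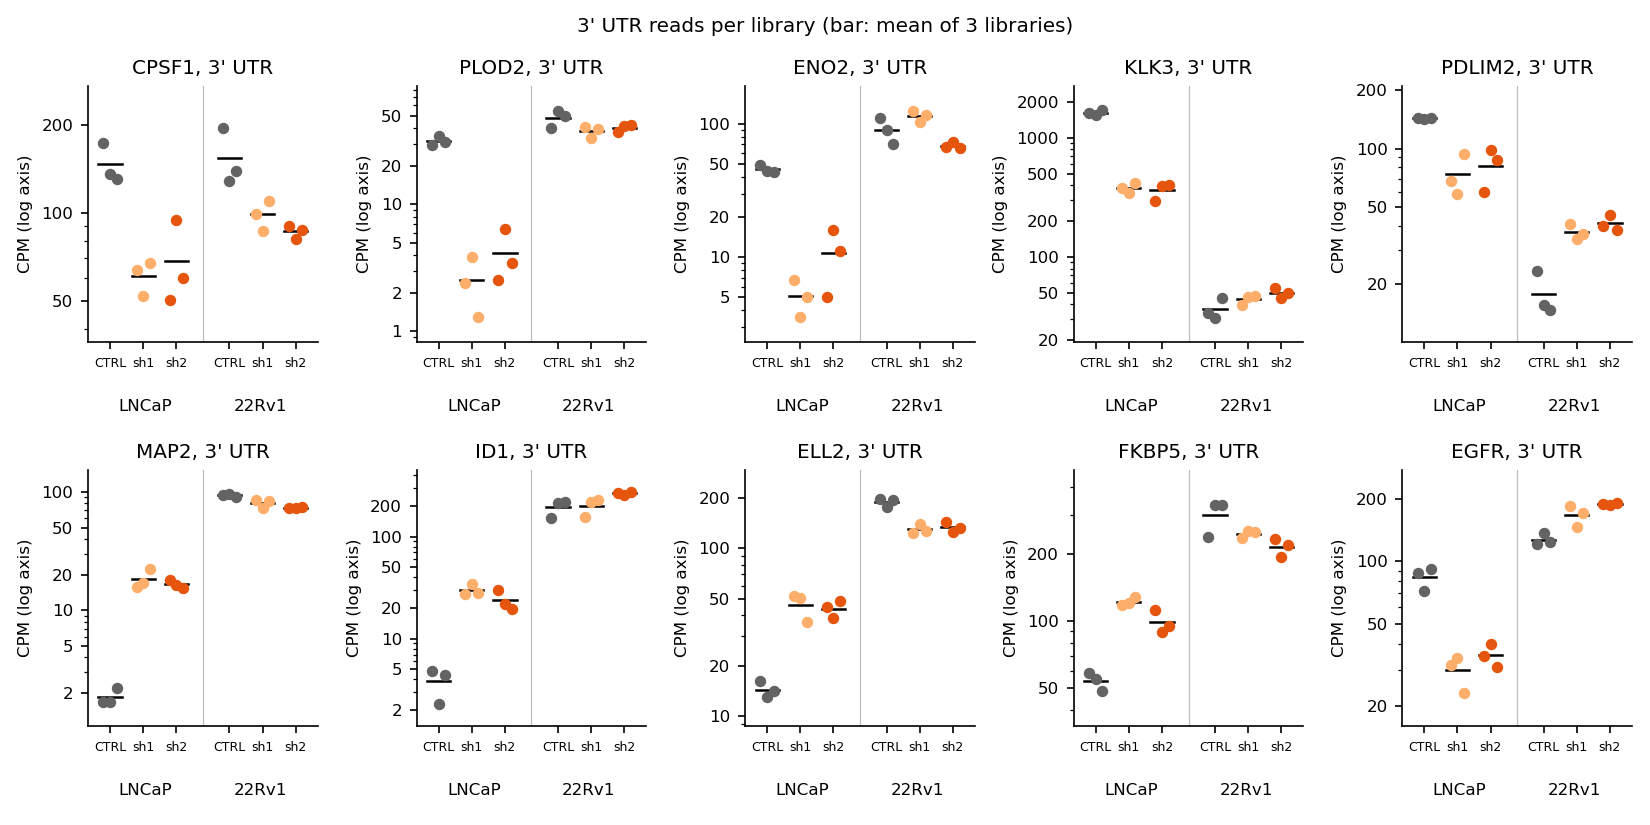
3′ UTR reads of 10 genes in each library (CPM, log axis), with points for libraries, bars for the mean of 3 and CTRL sh, CPSF1 sh1 and CPSF1 sh2 side by side within LNCaP and 22Rv1. PLOD2, ENO2, KLK3 and EGFR are lower with both shRNAs in LNCaP, and MAP2, ID1, ELL2 and FKBP5 are above all controls with both in LNCaP. In 22Rv1, MAP2 and ELL2 lie below the controls with both shRNAs. With CPSF1 sh2 in 22Rv1, ID1 lies above all controls and FKBP5 below them, and with CPSF1 sh1 both genes overlap the controls.

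To show the signal that CPSF reads at these genes, the poly(A) hexamer nearest the annotated gene end was located in the last 50 bases on the strand of the gene (GRCh37). The 3′ UTRs at the head of both directions are shown with the hexamer in capitals, 5′ to 3′.
PLOD2 (chr3:145787228-145787257, minus strand): aaaattataaaaAATAAAataattttagaa
KLK3 (chr19:51363987-51364016, plus strand): agaactcacagaAATAAAgagctgttatac
ENO2 (chr12:7032828-7032857, plus strand): atgagcacctccATTAAAgtctgaatcagt
MAP2 (chr2:210598803-210598832, plus strand): attgttttgcaaAATAAAattgcttgtcac
ID1 (chr20:30194278-30194307, plus strand): tgtttttttgttATTAAAcaaataatttag
Genes of both directions carried the AATAAA form (PLOD2, KLK3 and MAP2) or the ATTAAA variant (ENO2 and ID1). AATAAA was present in this window of 62.5% of the 304 genes whose 3′ UTR was higher in 22Rv1, 64.2% of the 201 lower and 61.8% of all 10385 tested. ATTAAA without AATAAA was present in 16.1%, 19.4% and 14.7%. In the intron table, AATAAA was at the gene end of 60.6% of genes higher in 22Rv1, 57% of those lower and 61.3% of all. For the 10 kb table the shares were 64.1%, 54.5% and 58.9%. The hexamer belongs to the annotated end only, and the sites at which individual reads ended are not given by the counts.

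Glycolysis genes were higher in 22Rv1 in 5 of the 17 3′ UTRs tested, and none was lower. The 29.4% called stand beside 4.86% over all 3′ UTRs, and the interest of the study in glycolysis arose from knockdown in the same lines, so the list is not independent evidence. ENO2, an enolase, had 49.2, 44.6 and 43.3 CPM in LNCaP controls and 3.59, 5.90 and 15.9 CPM with knockdown, against 111, 89.2 and 70.6 and 66.1, 88.2 and 124 CPM in 22Rv1. The groups were separated in LNCaP and overlapped in 22Rv1 (difference 2.68, SE 0.388, edgeR adjusted p = 0.000134). In 22Rv1, CPSF1 sh1 libraries of ENO2 had 103 to 124 CPM and CPSF1 sh2 libraries 66.1 to 73.3 CPM. Its difference was 3.50 with CPSF1 sh1 alone and 1.83 with CPSF1 sh2 alone. PFKP, a phosphofructokinase, had log2 fold changes of -1.26 and 0.44 (edgeR adjusted p = 0.00767), at 2.61 to 6.72 CPM in 22Rv1. GPI, which isomerises glucose 6-phosphate, had 626, 678 and 624 CPM in LNCaP controls and 356, 373 and 396 CPM with knockdown. In 22Rv1, it had 322, 340.2 and 331 and 293, 305 and 329.7 CPM (difference 0.68, edgeR adjusted p = 0.00296). PGK1, phosphoglycerate kinase, was separated downward in both lines, with log2 fold changes of -1.20 in LNCaP and -0.60 in 22Rv1 (difference 0.61, edgeR adjusted p = 0.0157). ALDOA, an aldolase, differed by 0.57 (edgeR adjusted p = 0.0412), and PFKM, the muscle phosphofructokinase, had a difference of 0.17 (edgeR adjusted p = 0.802). The calls of GPI, PGK1 and ALDOA were lost with CPSF1 sh2 alone and with summed library sizes and no TMM factors. Their highest edgeR adjusted p over the alternatives was 0.0887, 0.168 and 0.300. Those of PGK1 and ALDOA were also lost with summed library sizes and 3′ UTR factors. The PGK1 call was lost without CTRL sh 1 of LNCaP, and that of ALDOA without each of 12 libraries in turn. With summed library sizes and no TMM factors, the median over all 3′ UTRs was -0.18 against -0.01, and the difference of PFKM was -0.02.

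Of 20 hypoxia targets tested in 3′ UTRs, 2 were higher in 22Rv1 and none lower (10% called against 4.86% over all 3′ UTRs), with a list median of 0.45. PFKFB4, a regulator of phosphofructokinase activity, had 41.5, 46.3 and 39.6 CPM in LNCaP controls and 7.19, 11.5 and 15.6 CPM with knockdown. Its 22Rv1 values were 8.80, 15.1 and 12.4 and 6.64, 9.06 and 10.9 CPM, with overlap (difference 1.43, edgeR adjusted p = 0.00912). With CPSF1 sh2 alone this call was lost (adjusted p = 0.110). MXI1, an antagonist of MYC, was separated downward in both lines and differed by 0.77 (edgeR adjusted p = 0.0183), a call lost without CTRL sh 1 of LNCaP or CTRL sh 2 or 3 of 22Rv1 (highest adjusted p 0.253). In introns, PFKFB3 and PFKFB4 were higher and ERO1L, an endoplasmic reticulum oxidase, was lower among 17 members tested (17.6% called against 5.68% over all introns). The PFKFB3 and ERO1L calls were lost without 11 single libraries each, with adjusted p up to 0.154 and 0.393 over all alternatives, and that of PFKFB4 with CPSF1 sh1 alone and without CTRL sh 3 of 22Rv1 (adjusted p up to 0.0666).

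Among androgen-induced genes, more 3′ UTR calls were lower than higher in 22Rv1. Of 28 tested in 3′ UTRs, 1 was higher and 7 lower (28.6% called against 4.86% over all genes), and the list median was -0.28 against -0.01. KLK3 was the higher one. FKBP5, a co-chaperone of steroid receptors, had 58.5, 54.9 and 48.4 CPM in LNCaP controls and 89.3, 115 and 128 CPM with knockdown. In 22Rv1, it had 239, 332 and 335 and 194, 236 and 255 CPM, so that knockdown libraries lay above all controls in LNCaP and overlapped them in 22Rv1 (difference -1.43, SE 0.194, edgeR adjusted p = 5.64e-05). The 22Rv1 libraries had 238 to 255 CPM with CPSF1 sh1 and 194 to 235 CPM with CPSF1 sh2, the latter below all controls. ELL2, a transcription elongation factor, was separated in opposite directions, with 16.1, 13.0 and 14.1 CPM in LNCaP controls and 36.4, 46.6 and 52.1 with knockdown. It had 197, 176 and 194 CPM in 22Rv1 controls and 124, 129.6 and 144 CPM with knockdown (difference -2.17, edgeR adjusted p = 8.80e-08). MAF, a bZIP transcription factor, was separated upward in both lines, by 2.87 in LNCaP and 0.88 in 22Rv1 on the log2 scale (edgeR adjusted p = 0.000478 for the difference). The lower genes also included PMEPA1 (-1.14), ZBTB10 (-1.08) and ACSL3 (-0.99). In introns, 1 of 25 members was higher (KLK3, 2.03) and 6 were lower, namely MAF (-1.95), ELL2 (-1.11), ACSL3 (-1.10), ZBTB10 (-1.07), CENPN (-0.93) and HERC3 (-0.75), or 28% called against 5.68% over all introns. In the 10 kb table, 2 of 26 members were higher (CAMKK2 and KLK4) and none lower (7.69% called against 1.62%). Summing library sizes over the tables removed the intron calls of these genes other than KLK3 and MAF, and without CTRL sh 2 of 22Rv1 that of MAF had an adjusted p of 0.136. The summed level of 12 luminal genes, KLK3 among them, was 7224 to 7340 CPM in LNCaP controls, 5092 to 5742 with knockdown, 3468 to 4029 in 22Rv1 controls and 3654 to 4481 with knockdown, and its part in these differences was not tested.

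Genes of sterol and fatty acid synthesis held the largest share of calls among the 10 lists in 3′ UTRs. Of 27 tested, 9 were lower in 22Rv1 and 1 was higher (37% called against 4.86%), with a list median of -0.70. IDI1, the isopentenyl diphosphate isomerase, had 33.6, 32.3 and 33.5 CPM in LNCaP controls and 30.3, 46.5 and 56.1 with knockdown. It had 115.6, 175 and 151 CPM in 22Rv1 controls and 83.5, 90.2 and 103 CPM with knockdown, with separation in 22Rv1 alone (difference -1.11, edgeR adjusted p = 0.00511). FDFT1, squalene synthase, and HMGCS1, which makes HMG-CoA, were likewise separated downward in 22Rv1 and overlapped in LNCaP, with differences of -1.04 and -0.90. LSS, MVK, EBP and DHCR7, enzymes of the same pathway, differed by -1.06, -0.94, -0.89 and -0.80. The gene that was higher was ACLY, which makes cytosolic acetyl-CoA (0.57, edgeR adjusted p = 0.0459). Calls of ACLY, LSS and MVK were lost in 7, 6 and 2 of 11 alternatives. Each was also lost when most of the libraries were left out in turn (edgeR adjusted p up to 0.271, 0.179 and 0.179). Those of EBP and DHCR7 were lost with CPSF1 sh1 alone and without single controls of either line (edgeR adjusted p up to 0.146 and 0.136). That of IDI1 was lost with CPSF1 sh2 alone (adjusted p = 0.0910) and that of HMGCS1 without CTRL sh 2 of LNCaP (0.0704).

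The other lists held few calls. Of 24 p53 targets in 3′ UTRs, 2 were higher in 22Rv1 and none lower (8.33% called against 4.86%). GDF15, a stress-induced cytokine, had 1804, 2118 and 1646 CPM in LNCaP controls and 728, 882 and 1216 CPM with knockdown, against 66.0, 30.4 and 42.0 and 51.8, 87.1 and 129 CPM in 22Rv1 (difference 2.05, edgeR adjusted p = 0.00134). In 22Rv1, CPSF1 sh1 libraries of GDF15 had 51.8 to 63.6 CPM, within the control range. CPSF1 sh2 libraries had 110.6 to 129 CPM, above all controls. The GDF15 difference was 1.44 with CPSF1 sh1 alone and 2.45 with CPSF1 sh2 alone. PHLDA3, an inhibitor of AKT, overlapped in LNCaP and was above all controls in 22Rv1 (difference 1.34, edgeR adjusted p = 0.00103). Of 25 stress and unfolded protein response genes (4% called, against 4.86%), PDIA4 was lower (-0.51), a call lost without each of 12 libraries (adjusted p up to 0.308). None of 14 polyadenylation factors, 20 other 3′ end and termination factors, 29 replication and mitosis genes or 7 interferon-stimulated genes passed the threshold in 3′ UTRs.

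**Figure D4:**
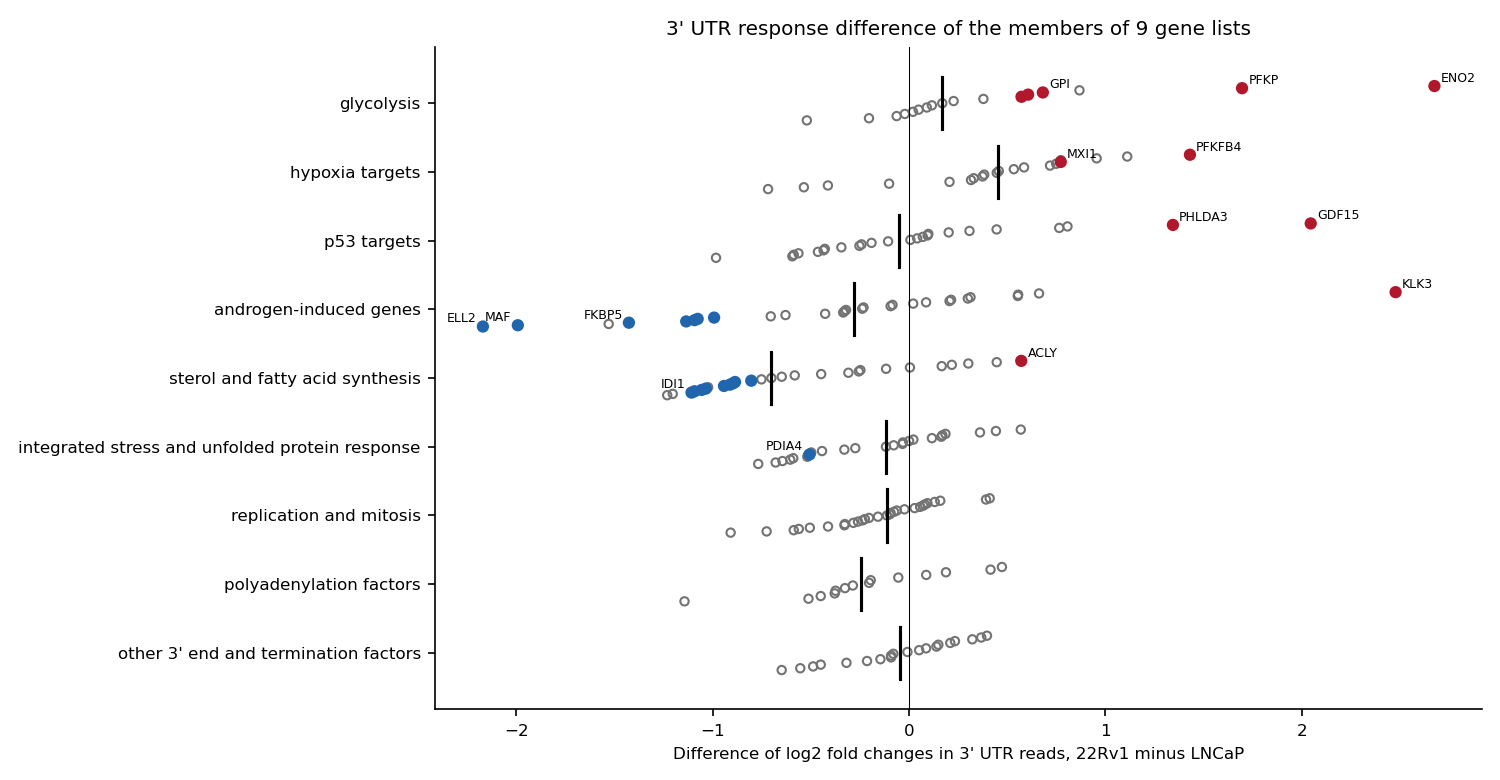
Difference of 3′ UTR log2 fold changes, 22Rv1 minus LNCaP (x axis), for each tested member of 9 gene lists, with filled points past an adjusted p of 0.05, open points for the others and bars at list medians. Sterol and fatty acid synthesis genes have a median of -0.70 and 9 filled points below 0, and all 5 filled glycolysis points are above 0.

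The 10 kb regions separated the lines in both directions. ALDH3A2, which oxidises fatty aldehydes, had 199, 265 and 241 CPM in LNCaP controls and 205, 233 and 337 CPM with knockdown, with overlap. The 22Rv1 controls and knockdown libraries had 570.2, 628 and 670.2 CPM and 1489, 1608 and 1769 CPM, without overlap (difference 1.3, SE 0.263, edgeR adjusted p = 0.00139). Its 3′ UTR went the other way, with 547, 507 and 523 CPM in 22Rv1 controls and 242, 299 and 349 with knockdown, against 74.9, 62.0 and 58.8 and 59.6, 66.1 and 71.3 CPM in LNCaP (difference -0.84, edgeR adjusted p = 0.00621). UGT2B15 had 163, 158 and 157 CPM downstream in 22Rv1 controls and 325, 409 and 473 CPM with knockdown, against 817, 970.4 and 949 and 391, 624 and 857 CPM in LNCaP (difference 1.92, edgeR adjusted p = 3.80e-06). HILPDA, a lipid droplet protein induced by hypoxia, was separated in opposite directions, with log2 fold changes of -0.90 and 0.68 (edgeR adjusted p = 0.000316). ANGPTL4, an inhibitor of lipoprotein lipase, was lower in 22Rv1, at 115, 233 and 204 CPM in controls and 34.1, 41.8 and 47.7 with knockdown. In LNCaP, its 3′ UTR had at most 1.46 CPM, against 40.5 to 96.8 CPM in 22Rv1. Its LNCaP controls had 14.0, 15.2 and 10.0 CPM in the 10 kb region, from 4, 5 and 3 reads. LNCaP knockdown libraries had 7.83, 23.2 and 24.1 CPM there, with overlap (difference -2.72, edgeR adjusted p = 0.00293). These differences kept their call in every alternative. ENO2, KLK4 and CAMKK2 were also higher in 22Rv1 (1.34, 1.05 and 1.83) and SC5D was lower (-1.63), calls that CPSF1 sh2 alone did not give (highest adjusted p 0.105, 0.0638, 0.195 and 0.119). The CAMKK2 call was also lost with RLE factors, with summed library sizes and without several single libraries. That of SC5D was also lost without CTRL sh 1 of LNCaP or CTRL sh 3 of 22Rv1.

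The most extreme 10 kb differences rested on few reads in the controls of 1 line. In that line, the genes passed the read filter through their knockdown libraries. DNAJC13, an endosomal co-chaperone, had no read downstream in the LNCaP controls and 6.62, 35.9 and 59.9 CPM with knockdown, at least 10.1-fold higher against a floor of 3 reads over the group. In 22Rv1 it had 57.5, 30.1 and 28.8 and 79.6, 98.8 and 128 CPM (edgeR adjusted p = 0.0271 for the difference), and the call was lost without any 1 of the LNCaP controls, without CTRL sh 1 of 22Rv1 and with CPSF1 sh1 alone (highest adjusted p 0.107). MROH6 had 1 read over the LNCaP controls and a ratio of 37.5 with knockdown (95% exact interval 6.58 to 1.5e+03), against 38.3, 60.2 and 91.6 and 25, 45.1 and 60.8 CPM in 22Rv1 with overlap (edgeR adjusted p = 3.37e-05). CA5B, a mitochondrial carbonic anhydrase, and ZNF619 had 1 read over the LNCaP controls each and ratios of 21.2 (3.65 to 850) and 24.9 (4.31 to 997). In 22Rv1, BMPR1A, a receptor for bone morphogenetic proteins, had no read in the controls and 12.7, 17.9 and 20.7 CPM with knockdown, at least 5.15-fold higher. PRUNE and ZNF140 had 1 read each over the 22Rv1 controls, with ratios of 25.1 (4.42 to 998) and 17.6 (3.09 to 705). SQLE, squalene epoxidase, had no read downstream in LNCaP controls and was at least 4.21-fold higher with knockdown. Intervals and floors cover counting error only. The calls of BMPR1A, ZNF140 and SQLE were lost in several alternatives (highest adjusted p 0.170, 0.131 and 0.161), those of PRUNE and ZNF619 with 1 shRNA alone or without single controls (0.0885 and 0.191), and that of CA5B without CTRL sh 3 of 22Rv1 (0.0538).

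Single libraries decided 2 further 10 kb calls. NFIX, a nuclear factor I transcription factor, had 6.98, 12.2 and 394 CPM in the LNCaP controls and 0, 10.9 and 17.3 with knockdown, against 4.79, 3.76 and 7.85 and 20.4, 35.9 and 64.1 CPM in 22Rv1. The difference was 6.49 (edgeR adjusted p = 1.15e-06), and without CTRL sh 3 of LNCaP it was 2.70 with an adjusted p of 0.278. CD4 had 244, 3.04 and 6.68 CPM in the LNCaP controls and 2.27, 8.96 and 118 CPM with knockdown in 22Rv1, with overlap in both lines, and without CTRL sh 1 of LNCaP its difference of 4.33 became 0.29 (adjusted p = 0.973). A gene annotated on the same strand lay within the region of 39.8% of all 12614 genes tested, 53.3% of those higher in 22Rv1 and 39.4% of those lower. Among the named 10 kb differences, these were GPR162 and P3H3 at CD4, BNIPL at PRUNE, ZRSR2 at CA5B, ZNF620 at ZNF619, ATN1 at ENO2, KLKP1 at KLK4, and EFCAB3P1 and HILPDA-AS1 at HILPDA. Same-strand genes without a symbol lay in the regions of HILPDA, ZNF140 and MROH6. Same-strand exons of the annotation used for the counts had been removed. The regions of CD4, PRUNE, CA5B and ENO2 kept 6824, 7745, 9790 and 9700 bases. Those of ZNF619, KLK4, HILPDA, ZNF140 and MROH6 kept all 10000 bases, so no exon of these neighbours was removed there. Whether transcripts of the neighbouring genes added reads was not tested.

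**Figure D5:**
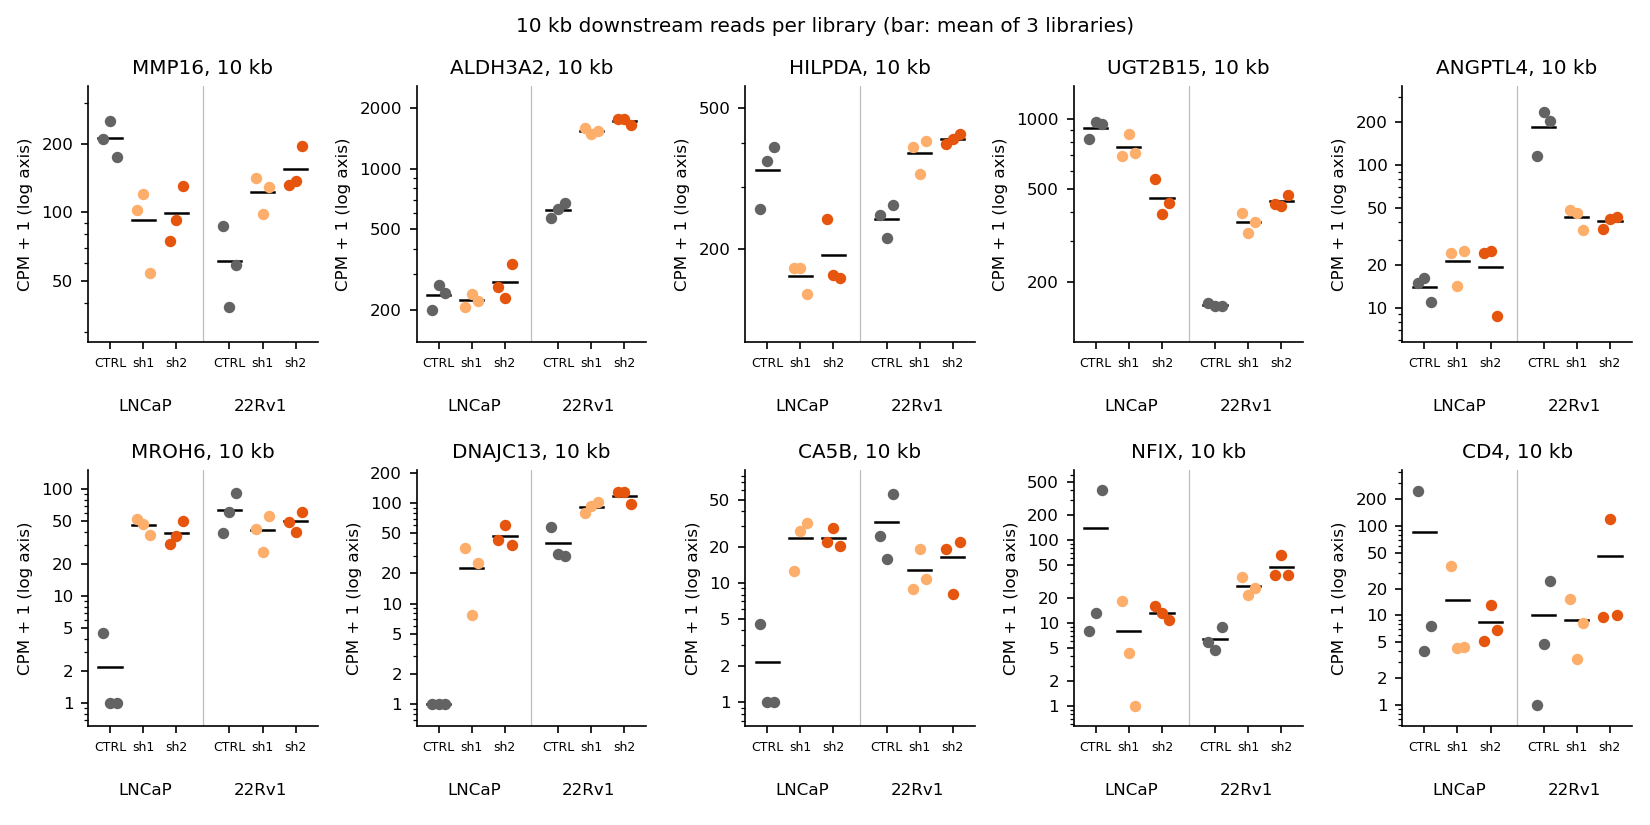
Reads in the 10 kb downstream of 10 genes in each library (CPM + 1, log axis), with points for libraries and bars for the mean of 3. ALDH3A2 is higher and ANGPTL4 lower with knockdown in 22Rv1, and a single LNCaP control stands far above the others for NFIX and for CD4.

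Of the 10 leading intron differences, 7 were at genes whose groups were separated in LNCaP alone, 2 at genes separated in both lines and 1 at a gene separated in 22Rv1 alone. ADARB2, a relative of the RNA-editing deaminases, had 148, 202 and 190.0 CPM in LNCaP controls and 19.5, 25.6 and 34.6 CPM with knockdown. Its 22Rv1 values were 17.2, 17.2 and 26.3 and 19.2, 23.0 and 28.3 CPM (difference 2.94, SE 0.257, edgeR adjusted p = 7.48e-10). BCHE, butyrylcholinesterase, and TLL1, a metalloprotease, were like it separated downward in LNCaP and overlapped in 22Rv1, with differences of 2.82 (edgeR adjusted p = 7.18e-08) and 2.05 (edgeR adjusted p = 3.75e-05). SUDS3, a subunit of the SIN3 deacetylase complex, overlapped in LNCaP and had 9.96, 9.36 and 10.4 CPM in 22Rv1 controls and 12.9, 48.5 and 77.6 CPM with knockdown (difference 3.37, edgeR adjusted p = 0.00119). NPC1, which exports cholesterol from lysosomes, had 122, 132 and 137 CPM in LNCaP controls and 743, 859 and 893 CPM with knockdown. In 22Rv1, it had 42.5, 39.8 and 41.2 and 50.4, 57.4 and 60.5 CPM, separated upward in both lines (difference -2.25, SE 0.181, edgeR adjusted p = 1.25e-10). SLC45A2, a melanosome transporter, was separated upward in both lines as well, with 4.95, 3.11 and 3.03 CPM in LNCaP controls, 89.2, 101 and 136 with knockdown, 0.905, 14.8 and 7.94 in 22Rv1 controls and 16.3, 24.9 and 32.9 with knockdown (difference -3.25, edgeR adjusted p = 7.62e-05). ARL9, KLRD1 and RIT2 were separated upward in LNCaP alone, with differences of -2.49, -2.26 and -2.16. PREPL, a relative of prolyl endopeptidases, differed by 2.08, which without CTRL sh 3 of 22Rv1 had an adjusted p of 0.0622. The other 9 leading intron genes kept their call in every alternative that gave them a value.

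Several genes differed in more than 1 kind of region, and their values are given side by side. These tables come from the same libraries. EGFR, the epidermal growth factor receptor, had 87.3, 72.1 and 91.9 CPM in its 3′ UTR in LNCaP controls and 23.1, 33.0 and 39.9 CPM with knockdown. In 22Rv1 the values were 121, 136 and 124 and 146, 186 and 191 CPM, separated in opposite directions (difference 1.87 in the 3′ UTR, edgeR adjusted p = 1.51e-06, and 1.35 in introns, edgeR adjusted p = 4.39e-06). MMP16, a membrane-type matrix metalloproteinase, was higher in 22Rv1 in its 3′ UTR (1.78), introns (1.91) and 10 kb region (2.40), as was UGT2B15 (2.23, 1.82 and 1.92). GRIN3A was lower in all of them (-3.02, -1.84 and -3.77), the last with 1 read over the LNCaP controls and a call lost in 4 of 10 alternatives. In 3′ UTR and introns, ST7 (1.67 and 1.73), TTC6 (1.56 and 1.28), TRPS1 (1.51 and 0.94) and ST3GAL1 (1.25 and 1.40) were higher, and MAP2 (-3.50 and -1.99), NPC1 (-1.79 and -2.25) and PLEKHB2 (-1.08 and -1.13) were lower. UGT2B17, a paralog of UGT2B15, was higher in introns (1.80, edgeR adjusted p = 0.00089) with 3.56 to 14.0 CPM in 22Rv1, and its 3′ UTR was not tested because 22Rv1 libraries had at most 1.62 CPM.

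Few genes passed the threshold for a difference in the balance between a region and their own 3′ UTR, which does not show that the other genes kept the same balance. The ratio of 10 kb to 3′ UTR responded differently in 9 of 8707 genes (0.103%), 5 higher (0.0574%) and 4 lower (0.0459%) in 22Rv1, while 932 had an unadjusted p under 0.05. The ratio of intron to 3′ UTR did so in 3 of 8210 genes (0.0365%), none higher and 3 lower, with 797 at an unadjusted p under 0.05, and the summed library sizes gave 15 higher and 0 lower. ALDH3A2 was higher in 22Rv1 in the 10 kb to 3′ UTR ratio, by 2.15 on the log2 scale (SE 0.384, edgeR adjusted p = 0.00744). MPV17L2, a mitochondrial protein, ATF5, a stress-response transcription factor, and AMD1, which makes the aminopropyl donor for polyamines, were also higher in 22Rv1, by 3.58, 2.73 and 1.96. AMD1 had 1456, 1792 and 1344 CPM downstream in LNCaP controls and 894, 1105 and 1394 CPM with knockdown, against 249, 387 and 351 and 632, 744 and 834 CPM in 22Rv1. MPV17L2 had 136, 115.6 and 70.2 and 17.3, 28.9 and 36.2 CPM downstream in LNCaP, against 14.4, 11.3 and 5.24 and 6.81, 13.8 and 20.7 CPM in 22Rv1. MROH6 and GNL3, a nucleolar GTPase, were lower, by -5.40 and -2.41. The 3 intron ratios, named after their values were seen, were those of KLHL24 (-2.51), DNAH14 (-2.06) and CENPC (-1.88). KLHL24 introns had a log2 fold change of 1.72 in LNCaP and -0.06 in 22Rv1. Each of the 6 named 10 kb ratios lost its call in at least 1 alternative, most often with a single shRNA, and without CTRL sh 3 of 22Rv1 the count was 2.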

How the data were processed

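PAC-seq libraries from LNCaP and 22Rv1 cells with CTRL sh, CPSF1 sh1 or CPSF1 sh2 were compared, 3 per group, with groups and replicate numbers taken from the sample titles. The values the authors deposited are unnormalised counts, 1 row per gene, in 4 tables (3′ UTR extended by 300 bases, intron, CDS, and 10 kb downstream with exons of the same strand removed). Per the study's methods and processing notes, poly(A) stretches were removed, reads were mapped with HISAT2 2.1.0 to GRCh37 and counted with featureCounts (Subread 2.0.3) by strand and by their 3′-most base. Priming inside A-rich transcript sequence can add reads to introns and 10 kb regions, and overlapping regions of neighbouring genes on 1 strand cannot be told apart.

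Genes with a mean above 2 CPM over the 9 libraries of each line were fitted in edgeR 4.0.16 under R 4.3.3 (quasi-likelihood F-test), each table with its own library sizes and TMM factors, and the line-by-knockdown term was adjusted over all genes of the table (Benjamini-Hochberg, threshold 0.05). Ratios were tested as a region-by-line-by-knockdown term over 36 columns with library effects. Region shares were compared by exact permutation. The models were tested on simulated data. DESeq2 1.42.0, other scalings and filters, single shRNAs, a replicate block and leaving out each library were alternatives. Intron results without MTRNR2L genes were added after seeing the data.

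Genes were named by rule: CPSF1 and genes the study names; in each table the 5 highest and 5 lowest differences past the threshold with at least 10 CPM in each line and 1 sign with both shRNAs; 12 genes past it in at least 2 tables; and list members past it. Y-linked genes and a few others that met the rule are not reported here. The minimum of 10 CPM, like the filter of 2 CPM, is a mean over the 9 libraries of a line. Controls or knockdown libraries alone could therefore meet it. Members and lists were chosen with earlier results of these data known. Neighbouring genes came from GENCODE release 44 on GRCh37, newer than the annotation of the counts. Libraries held 3452413 to 12425417 reads over the tables, and PCR copies were not separable from molecules, so intervals cover counting error only. P-values measure the spread between these cultures, and that spread includes differences between the 2 shRNAs, which were pooled as 1 knockdown group. With the 6 groups fitted apart, 597 3′ UTRs, 746 introns and 251 10 kb regions passed the threshold.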

Additional observations from a re-analysis of the deposited data

Results flagged for a closer look

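The response to knockdown differed between the lines, by the test of the difference itself, in 505 3′ UTRs, 652 introns, 204 10 kb regions and 63 CDS regions, and in the ratio to the 3′ UTR for 9 10 kb regions and 3 introns.

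In 200 groups of 6 knockdown libraries of named genes, 12 had a library at the end of the range that stood apart from the rest by Dixon's criterion (gap over range above 0.625), and chance sets apart about 1 in 20 such groups. For CD4 in the 10 kb table these were LNCaP CPSF1 sh1 1 at 34.6 CPM and 22Rv1 CPSF1 sh2 2 at 118 CPM, and without the latter the call was lost. For HILPDA in the 10 kb table they were LNCaP CPSF1 sh2 1 at 241.5 CPM, the closest of the LNCaP knockdown libraries to the controls, and 22Rv1 CPSF1 sh1 2 at 324.6 CPM, the lowest of its group and still above all controls.

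In 3′ UTRs, LNCaP CPSF1 sh2 2 was highest for GDF15 (1216 CPM), LNCaP CPSF1 sh1 3 for GRIN3A (25.4 CPM) and PHLDA3 (116.3 CPM), and LNCaP CPSF1 sh2 3 for C6orf52 (52.1 CPM). The lowest library for PFKM was 22Rv1 CPSF1 sh1 1 at 33.3 CPM. In introns, LNCaP CPSF1 sh2 1 was highest for SUDS3 (17.2 CPM), LNCaP CPSF1 sh2 3 stood apart for TRPS1 (110.6 CPM), and 22Rv1 CPSF1 sh1 2 was lowest for BCHE (6.72 CPM). Apart from CD4 and PFKM, which was not called, leaving out any of these libraries kept the call of the gene in that table.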

How the results depend on the processing

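Counts of genes past the threshold moved by over 1.5 times as follows, and the causes were not tested. With CPSF1 sh2 alone, 126 10 kb regions, 200 3′ UTRs, 262 introns, 35 CDS regions and 4 10 kb ratios passed. With CPSF1 sh1 alone, 4 10 kb ratios and 13 intron ratios passed. With summed library sizes and 3′ UTR factors, 135 10 kb regions, 1062 introns, 25 CDS regions and 15 intron ratios passed, and with no TMM factors 1485 introns, 28 CDS regions and 15 intron ratios. DESeq2 called 158 and the unfiltered fit 101 CDS regions. With 2 CPM required in every library, 36 10 kb ratios and 16 intron ratios passed. Leaving out 1 library gave 111 to 223 10 kb regions, 281 to 846 3′ UTRs, 375 to 822 introns, 24 to 91 CDS regions, 2 to 18 10 kb ratios and 2 to 46 intron ratios. CTRL sh 3 of 22Rv1 gave the lowest of these counts when left out, except in CDS (CTRL sh 2 of LNCaP), and CTRL sh 1 of 22Rv1 the highest, except in CDS (CPSF1 sh2 2 of LNCaP). Also past 1.5 times, the 10 kb count was 129 without CTRL sh 3 of LNCaP, the 3′ UTR count 329, 325 and 315 without CTRL sh 1 or 3 of LNCaP or CTRL sh 2 of 22Rv1, and the intron count 377 and 427 without CTRL sh 2 of LNCaP or of 22Rv1. CDS counts were 32 and 35 without CTRL sh 3 of LNCaP or of 22Rv1. Without single libraries, the 10 kb ratio count was also 16, 5 and 14 and the intron ratio count 5, 6, 7 and 19. No gene called with all libraries changed sign without 1 of them.

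The share differences ranged from -0.36 to 0.0366 points in 10 kb regions, -7.11 to -2.97 in 3′ UTRs, 3.66 to 6.39 in introns and -1.06 to 0.77 in CDS without 1 library, and the CDS share was 0.90 with CPSF1 sh1 alone and 0.0724 without MTRNR2L genes. The difference of PFKM in the 3′ UTR was -0.0246 with summed library sizes and no TMM factors, and -0.0636 to 0.493 without 1 library, negative only without CTRL sh 1 of 22Rv1. The alternatives that gave a value (9 to 12 per gene, 5 or 6 for ratios) all kept the call of 30 of 42 named 3′ UTRs, 22 of 34 introns, 9 of 21 10 kb regions and 0 of 6 ratios. Deviations of same-numbered libraries correlated at -0.38 to 0.57, above 0.1 in 3 of 9 pairs of each line in 3′ UTRs, in 2 of 9 in 22Rv1 introns and in 0 in the 10 kb table. Those of 22Rv1 3′ UTRs were all 3 pairs of CTRL sh with CPSF1 sh1 (0.566, 0.384 and 0.190), while pairs with CPSF1 sh2 ran from -0.268 to 0.0394. Not every pair passed 0.1, so the numbers were not taken to pair the libraries. With the replicate block, 159 10 kb regions, 398 3′ UTRs, 534 introns, 56 CDS regions, 9 10 kb ratios and 2 intron ratios passed, and the intron and 3′ UTR shares had adjusted p of 0.0648 and 0.0764 by exact permutation within replicate numbers.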
